A study of Rattus norvegicus with 40 samples.

Results

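Gene expression was compared between the operated (ipsilateral) and the other (contralateral) side of the fifth lumbar (L5) dorsal root ganglion (DRG) of rats that had surgery without nerve ligation. The comparison rests on the labels alone: of the 40 arrays of the series, the 10 labelled as sham procedure and L5 DRG were taken, 5 ipsilateral and 5 contralateral. All animals were male Sprague-Dawley rats, and every DRG was collected 4 weeks after surgery. The ipsilateral DRGs lay on the left side, where the vertebral column was exposed and the L6 transverse process removed with no ligature placed, and the contralateral DRGs came from the opposite side of the same 5 animals, which are numbered 1, 14, 17, 22 and 23 in the labels. The contralateral side therefore shares the anaesthesia, the handling and any body-wide response to surgery, and no DRG of an unoperated animal was measured. RNA was extracted from single DRGs and each was hybridised to its own Affymetrix rat genome array, so that the p-values below measure the spread between rats. The other arrays of the series are the L4 DRGs of the same sham rats and the L4 and L5 DRGs of rats whose left L5 spinal nerve was tightly ligated (spinal nerve ligation, SNL), and 2 of these comparisons, sham L4 and SNL L5, are used further below to show where sham L5 differed.

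The DRG holds the cell bodies of the sensory neurons of a spinal nerve, each wrapped by satellite glial cells, together with Schwann cells along the axons, fibroblasts of the capsule, vessels and resident macrophages. When their peripheral axons are cut or ligated, sensory neurons switch on a characteristic set of genes, among them the transcription factors Atf3 and Sox11 and the neuropeptides galanin, neuropeptide Y and vasoactive intestinal peptide, while macrophages gather in the ganglion. Sham surgery exposes the vertebral column and removes bone without a ligature, and serves as the control for these changes.

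The promoters of 4 of these injury genes are shown because their signals differed between the sides of the sham L5 DRG. Each is the 250 bases before the annotated start in RefSeq (assembly GRCr8), from 5′ to 3′ on the gene's strand, and capitals mark TGACG, the core of the cAMP response element, searched on both strands together with the AP-1 motif TGANTCA.
Vip: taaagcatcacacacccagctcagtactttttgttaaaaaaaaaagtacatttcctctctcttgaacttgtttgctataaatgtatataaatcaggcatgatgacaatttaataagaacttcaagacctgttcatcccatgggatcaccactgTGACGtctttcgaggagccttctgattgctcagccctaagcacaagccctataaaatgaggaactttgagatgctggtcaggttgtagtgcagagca
Npy: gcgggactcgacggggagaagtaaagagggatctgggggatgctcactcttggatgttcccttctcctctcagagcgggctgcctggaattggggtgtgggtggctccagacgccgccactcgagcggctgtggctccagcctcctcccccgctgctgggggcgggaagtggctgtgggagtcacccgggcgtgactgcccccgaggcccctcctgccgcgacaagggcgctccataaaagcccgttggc
Gal: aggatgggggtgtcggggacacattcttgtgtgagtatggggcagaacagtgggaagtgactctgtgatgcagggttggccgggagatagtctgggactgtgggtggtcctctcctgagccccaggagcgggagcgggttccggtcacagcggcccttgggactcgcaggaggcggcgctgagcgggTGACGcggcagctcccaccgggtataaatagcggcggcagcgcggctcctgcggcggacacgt
Sox11: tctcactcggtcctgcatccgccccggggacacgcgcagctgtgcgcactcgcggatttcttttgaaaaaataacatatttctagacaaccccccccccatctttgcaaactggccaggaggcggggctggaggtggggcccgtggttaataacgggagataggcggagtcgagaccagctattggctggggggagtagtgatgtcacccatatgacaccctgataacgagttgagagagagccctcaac
The windows lie at chr1:44470230-44470479 (Vip, plus strand), chr4:80211861-80212110 (Npy, plus strand), chr1:210084573-210084822 (Gal, minus strand) and chr6:49738795-49739044 (Sox11, minus strand). TGACG occurred once in the windows of Vip and Gal and not in those of Npy and Sox11, and TGANTCA occurred in none of them. Over the 33469 rat promoter windows of this length, 18.2% held TGACG and 6.34% held TGANTCA. These are matches of letters and not tested binding sites.

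The arrays were checked against markers of the cells a DRG dissection can hold. Signals are the authors' linear MAS5 values, a brightness per probe set (a group of short probes for 1 transcript), and the median of the mean signals of all probe sets was 33.1. The neuronal markers Prph (peripherin), Tubb3 and Avil had mean signals at percentiles 99.54, 99.01 and 98.78 of all probe sets and the nociceptor channel Scn10a at 93.3. The transcription factors Isl1 and Pou4f1 stood near the middle, at 61.0 and 59.1, and Prdm12 was dim, at 17.7. None of these 7 neuronal markers was called in both scalings described below. Their summed signal was 4514 to 5335 ipsilaterally and 3896 to 4162 contralaterally, without overlap. As deposited, Prph (0.41 in log2) and Tubb3 (0.49) were called higher and Scn10a (-0.21) lower. After quantile normalization Avil was called lower (-0.30). Of the markers of other cells, 0 of 4 for skeletal muscle, 0 of 2 for endothelium and 2 of 4 for fibroblasts, both lower, were called in both scalings. The muscle genes Acta1 and Ckm stood at 81.1 to 92.7 and 7.03 to 26.1 ipsilaterally and at 77.5 to 94.8 and 9.63 to 13.9 contralaterally. Myh4 and Tnnt3, also of muscle, were called higher as deposited, by 0.45 and 0.32 in log2, but not after quantile normalization. Of the wider list of 28 muscle genes, 14 were called higher and 1 lower as deposited and 3 higher and 1 lower in all 3 scalings, and its summed signal was 2611 to 2921 ipsilaterally and 2375 to 2534 contralaterally. Of 6 markers of spinal cord, which lies next to the dissected ganglion, 0 were called higher and 1 lower in both scalings, with a summed signal of 75.2 to 93.8 ipsilaterally and 73.8 to 94.0 contralaterally. Of a wider list of 19 oligodendrocyte, astrocyte and spinal cord genes, 2 were higher and 1 lower in both scalings and 0 higher and 1 lower in all 3, and its summed signal was 1328 to 1461 against 1067 to 1131. The part of neuronal, muscle or spinal cord RNA in the results below was not tested.

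The 2 sides differed in their whole signal distribution before any gene was considered. The median signal of an array was 34.9 to 36.6 ipsilaterally and 28.6 to 29.7 contralaterally, and the 99th percentile was 1303 to 1489 against 1045 to 1111, while the 75th percentile ran the other way, at 109 to 113 against 122 to 125 (each p = 0.00794, 2-sided exact permutation test, the smallest p that 5 against 5 arrays allow). Control probe sets also differed. The 5S ribosomal RNA control read 205 to 279 ipsilaterally and 52.1 to 67.6 contralaterally, a ratio of 4.02, and the repeat-element control ratb1 read 413 to 588 against 133 to 150, a ratio of 3.30. The bacterial hybridisation controls, which are added to each sample and are not rat RNA, averaged 9.23 ± 0.44 on the log2 scale ipsilaterally and 8.10 ± 0.29 contralaterally (SD, n = 5; p = 0.00794, exact permutation test). The 3′ to 5′ ratio of GAPDH, a measure of RNA integrity, was 1.11 ± 0.11 against 1.01 ± 0.09 in log2 (SD, n = 5; p = 0.175, exact permutation test). The same ratio of actin was 4.41 ± 0.16 against 4.20 ± 0.11 in log2 (SD, n = 5; p = 0.0556, exact permutation test). In the labels the running numbers of the ipsilateral arrays are 23 to 27 and those of the contralateral arrays 28 to 32, so array order and side cannot be told apart. The part of these differences in the gene results below was not tested.

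Each gene was therefore read in more than one scaling: as deposited, after quantile normalization, which forces the 10 arrays to 1 distribution, and after scaling every array to an equal median. All tests used limma on log2(signal + 16), a scale that understates the fold change of dim genes, and a probe set was called at an adjusted p under 0.05 over all 31042 probe sets. As deposited, 9640 probe sets (31.1%) were called higher and 5978 (19.3%) lower on the ipsilateral side. After quantile normalization 5267 (17%) were called higher and 6722 (21.7%) lower, so the balance between the directions turned with the scaling. The difference followed signal level. As deposited, the median log2 difference was 0.30 in the third of 10 equal bins of probe sets ordered from dim to bright and -0.19 in the eighth and the ninth, and after quantile normalization it stayed between -0.11 and 0.02 in every bin.

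**Figure D1:**
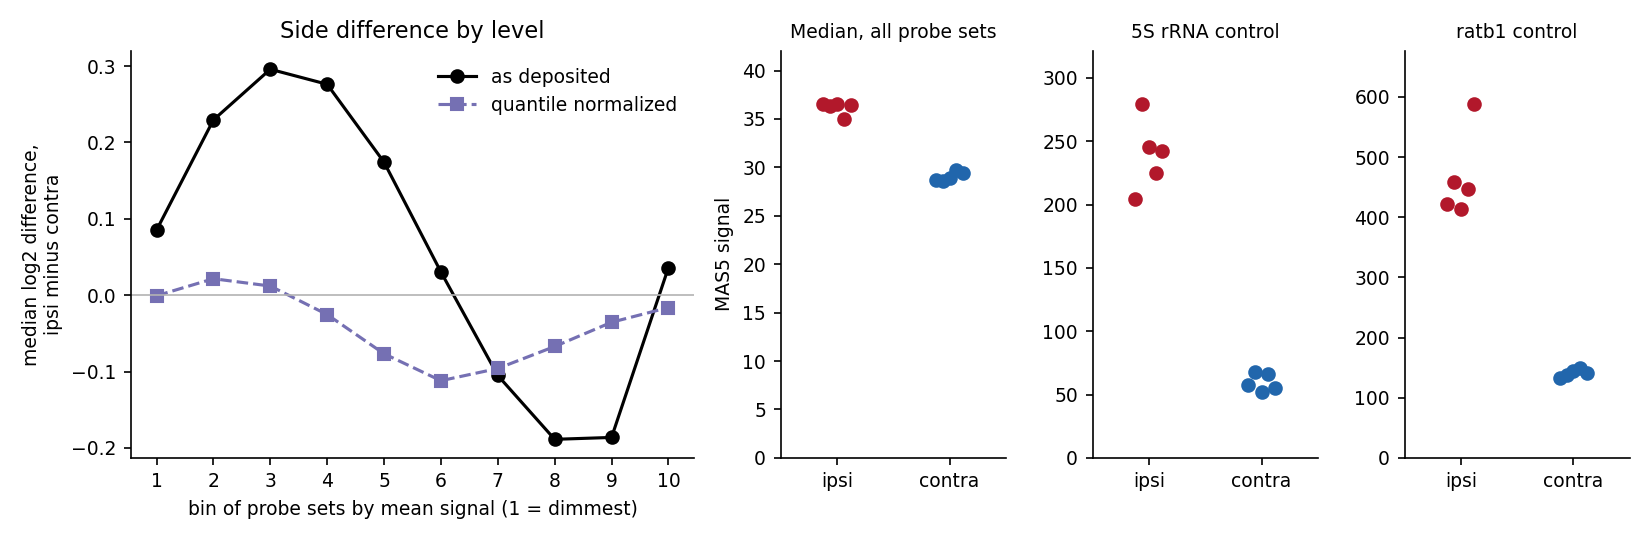
Left, the median log2 difference (ipsilateral minus contralateral, sham L5) of probe sets grouped into 10 equal bins by mean signal, as deposited (circles) and after quantile normalization (squares). Right, the MAS5 signal of each of the 5 ipsilateral and 5 contralateral arrays (1 point per array) for the median of all probe sets, the 5S rRNA control and the ratb1 control, where the sides do not overlap.

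Taking each gene by its brightest probe set left 14217 genes. Of these, 1246 (8.76%) were called higher and 2594 (18.2%) lower in the same direction both as deposited and after quantile normalization, and these calls are used below as "called in both scalings". The counts of list members called in both scalings below are read against these shares. With equal medians added, 790 (5.56%) were called higher and 2594 (18.2%) lower in all 3 scalings. No fall was lost in this step, so a call in all 3 scalings is a further condition for rises only. The median log2 difference of all genes was -0.03 as deposited, -0.08 after quantile normalization and -0.28 with equal medians, so a gene's value under equal medians is read against a shift of that size. Most differences were small. In both scalings 330 genes rose and 198 fell by at least 0.5 in log2, and 74 rose and 2 fell by at least 1. Another 49 genes were called in opposite directions, all higher as deposited and lower after quantile normalization. Of 1433 genes called in both scalings that have more than 1 probe set, another probe set was called the same way in 254 and the other way in 143.

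Among the nerve injury genes, 3 neuropeptides and a transcription factor rose on the ipsilateral side of L5 in all 3 scalings. Vip, vasoactive intestinal peptide, had signals of 84.1, 104, 110, 76.4 and 77.8 in the ipsilateral DRGs of rats 1, 14, 17, 22 and 23, against 4.19, 5.34, 7.18, 5.71 and 7.66 in their contralateral DRGs. No contralateral array came near the ipsilateral range, and the contralateral level lay among the dim signals of the arrays. Its log2 difference was 2.26 ± 0.10 (SE; adjusted p = 3.7e-10, limma) as deposited, 2.17 after quantile normalization and 2.09 with equal medians. Npy, neuropeptide Y, gave 199, 208, 187, 185 and 195 ipsilaterally and 37.7, 39.4, 42.2, 34.9 and 43.8 contralaterally. The spread between rats was small on both sides, with means of 195 ± 9.66 and 39.6 ± 3.54 (SD, n = 5), and the log2 difference was 1.92 ± 0.06 (SE; adjusted p = 3.66e-11, limma). Gal, galanin, gave 217, 239, 248, 188 and 168 ipsilaterally and 113, 107, 125, 137 and 128 contralaterally. Its sides did not overlap, and the log2 difference was 0.72 ± 0.09 as deposited (SE; adjusted p = 2.27e-05, limma), 0.86 after quantile normalization and 0.43 with equal medians. Sox11, a transcription factor of developing and regrowing neurons, gave 113, 128, 113, 122 and 109 ipsilaterally and 51.9, 48.6, 50.4, 50.1 and 45.1 contralaterally. This was a separation as clean as that of Npy, with a log2 difference of 1.03 ± 0.06 (SE; adjusted p = 9.43e-09, limma).

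**Figure D2:**
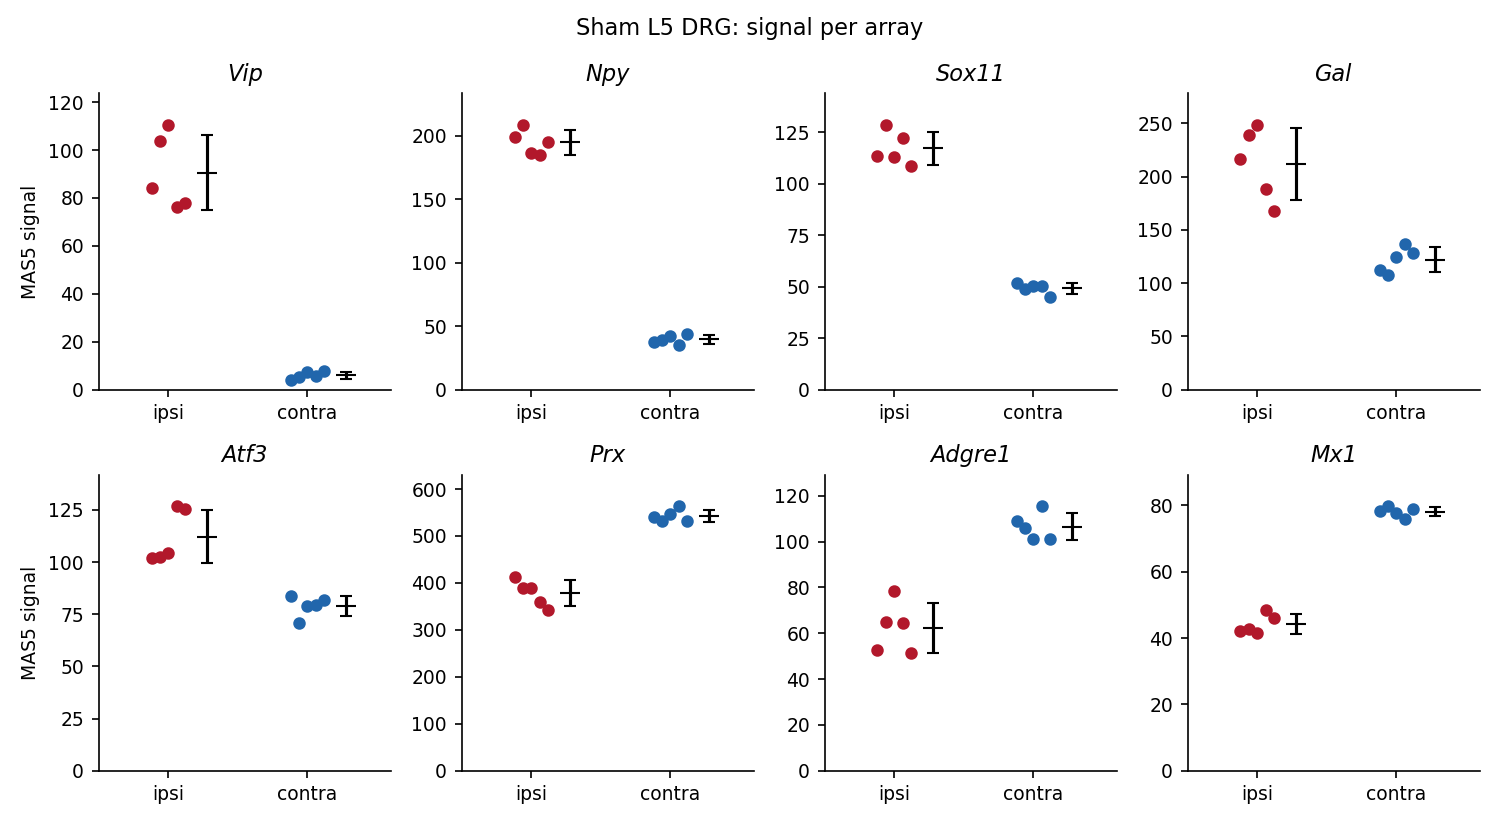
MAS5 signal of 8 genes in the sham L5 DRG, with 1 point per array for the 5 ipsilateral (left) and 5 contralateral (right) arrays, and the mean with its SD beside them. Vip, Npy, Sox11, Gal and Atf3 are higher ipsilaterally and Prx, Adgre1 and Mx1 lower, with no overlap between the sides in any of the 8.

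Among other genes known to follow nerve injury, the differences ranged widely. Atf3, the transcription factor most used as a marker of injured sensory neurons, read 102, 102, 104, 127 and 125 ipsilaterally and 83.6, 70.6, 79.0, 79.6 and 81.7 contralaterally. The sides did not overlap, but the step was small, a log2 difference of 0.43 ± 0.07 as deposited and 0.52 after quantile normalization (SE; adjusted p = 0.000205 and 0.000141, limma), and it was not called with equal medians (0.16, adjusted p = 0.0776). Csrp3, a muscle LIM protein also made by injured sensory neurons, was dim, at 24.5 ± 3.57 ipsilaterally and 1.65 ± 1.14 contralaterally (SD, n = 5), with a log2 difference of 1.20. Sprr1a, a small proline-rich protein of regrowing axons, was dimmer still, at 11.2 ± 2.71 against 2.90 ± 1.48 (SD, n = 5), and was called in all 3 scalings with log2 differences of 0.52, 0.32 and 0.44. Gap43, the growth cone protein, was bright on both sides, at 1328 ± 166 against 994 ± 44.9 (SD, n = 5). It was called as deposited, at 0.40, and not after quantile normalization, at 0.10 (adjusted p = 0.164, limma). Jun had 829 ± 15.6 ipsilaterally and 805 ± 22.4 contralaterally (SD, n = 5). Its sides overlapped, and its log2 difference was 0.04 as deposited and -0.10 after quantile normalization, called in neither. Of the 50 measured genes on the nerve injury list, 15 were called higher and 6 lower in both scalings, 10 and 6 in all 3, and the median member differed by 0.23 as deposited, 0.09 after quantile normalization and 0.01 with equal medians, against -0.03, -0.08 and -0.28 for all genes. Of 20 sensory neuropeptide genes 4 were called higher and 1 lower. The lower one, Penk (proenkephalin), read 46.8 ± 6.97 ipsilaterally and 71.1 ± 2.80 contralaterally (SD, n = 5), a log2 difference of -0.48.

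The largest rises of all genes held Vip and Npy together with genes of varied roles. By rank they were Vip, Nars2, Ces1c, Npy, Ifnk, Ikzf2, Spic, Tfap2b, Pank2, N5, Zfyve1 and Spetex2l1, chosen from 574 genes that were called higher in both scalings, brighter than the median probe set and free of overlap. Nars2, the mitochondrial asparaginyl-tRNA synthetase, read 229 to 280 ipsilaterally (median 235) and 46.1 to 54.9 contralaterally (median 52.1), a log2 difference of 1.96 ± 0.06 (SE; adjusted p = 3.66e-11, limma). Ces1c, a carboxylesterase, averaged 137 ± 8.54 ipsilaterally and 22.7 ± 5.70 contralaterally (SD, n = 5), a difference of 1.99. Its other probe set was not called, whereas both other probe sets of Tfap2b, a transcription factor of the AP-2 family, were called higher. Tfap2b averaged 145 ± 17.1 against 37.5 ± 5.31 (SD, n = 5). A further 3 of these genes encode regulators of immune cells or interferon: Ifnk, interferon kappa, at 147 ± 19.6 against 31.3 ± 6.45, Ikzf2, a lymphocyte transcription factor, at 151 ± 14.9 against 38.2 ± 8.15, and Spic, a transcription factor of red pulp macrophages, at 108 ± 8.66 against 22.9 ± 3.37 (SD, n = 5 each). Pank2, a pantothenate kinase, averaged 128 ± 15.02 against 33.2 ± 6.22 (SD, n = 5), and 1 of its 3 other probe sets was called higher. Zfyve1, a FYVE-domain protein, averaged 178 ± 13.3 against 53.4 ± 2.87 (SD, n = 5), but another of its probe sets was called lower. The log2 differences of the 12 genes as deposited ran from 1.48 for Zfyve1 and Spetex2l1 to 2.26 for Vip.

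The largest falls were smaller than the largest rises. They were Pld1, Xrcc5, Emid1, Gm2a, C18h18orf54, Fdxacb1, Harbi1, Star, Adamtsl1, Dock3, Prelp and Glb1, out of 1856 genes under the same conditions. Pld1, phospholipase D1, averaged 69.4 ± 13.2 ipsilaterally and 169 ± 10.2 contralaterally (SD, n = 5), a log2 difference of -1.13 ± 0.09 (SE; adjusted p = 2.45e-07, limma). Of its 4 other probe sets 1 was called lower and 1 higher. Xrcc5, the Ku80 subunit of DNA end joining, averaged 105 ± 18.8 against 249 ± 34.4 (SD, n = 5), a difference of -1.14, and its other probe set was not called. Emid1, an extracellular protein with an EMI domain, averaged 79.7 ± 7.47 against 184 ± 17.7 (SD, n = 5), a difference of -1.07. The lysosome was represented by Gm2a, the GM2 ganglioside activator, at 52.6 ± 6.19 against 111 ± 8.11, and Glb1, the lysosomal beta-galactosidase, at 86.4 ± 6.50 against 173 ± 8.52 (SD, n = 5 each). The matrix was represented by Prelp, a leucine-rich proteoglycan, at 35.6 ± 8.25 against 71.1 ± 7.10, and Adamtsl1 at 55.2 ± 5.14 against 108 ± 6.31 (SD, n = 5 each). Star, which carries cholesterol into mitochondria, averaged 47.6 ± 4.87 against 94.4 ± 2.69 (SD, n = 5). Harbi1, a transposase-derived protein, averaged 23.8 ± 9.59 against 51.9 ± 6.15 (SD, n = 5), but its other probe set was called higher. Dock3 had the widest spread of the 12, with contralateral signals of 65.2 to 181 and ipsilateral signals of 46.4 to 61.0.

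**Figure D3:**
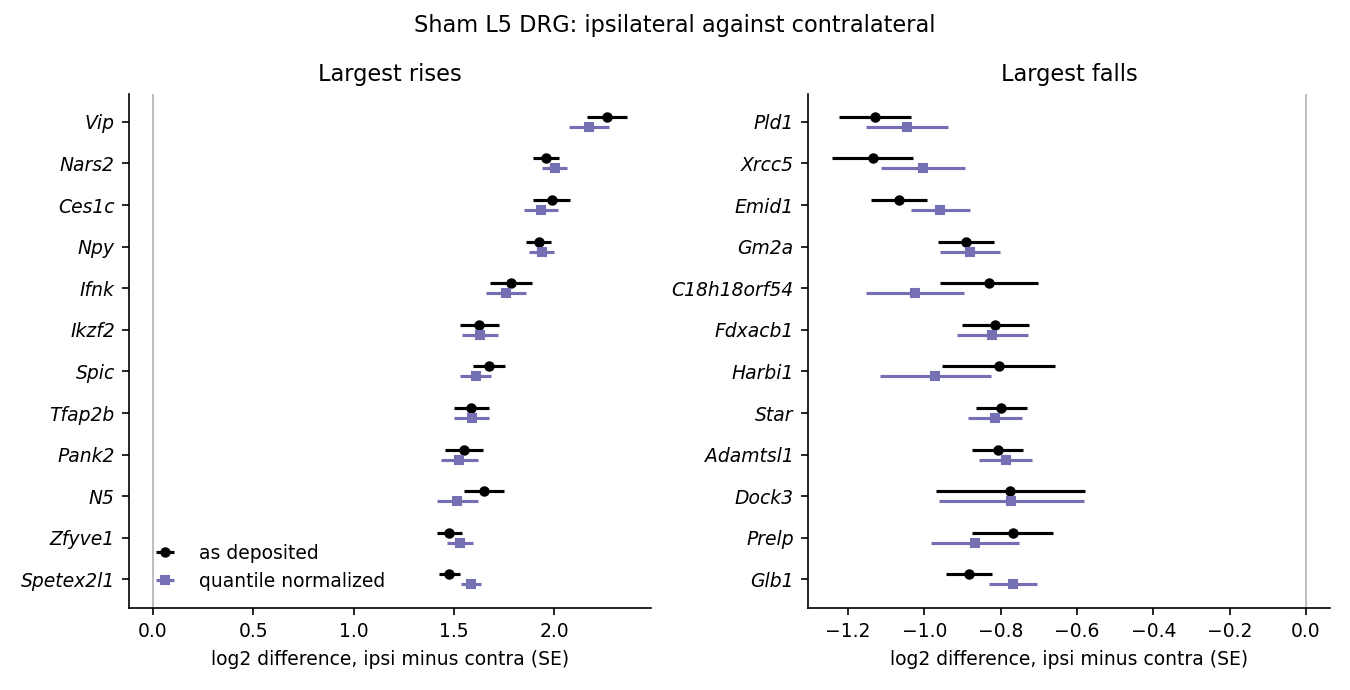
Log2 difference (ipsilateral minus contralateral, sham L5, with its SE) of the 12 genes with the largest rise (left) and the 12 with the largest fall (right), as deposited (circles) and after quantile normalization (squares). The rises reach 2.26 and the falls -1.14, and the 2 scalings give similar values.

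Among ion channels and receptors, which set the excitability of sensory neurons, calls went both ways. Of 32 potassium channel genes 6 were called higher and 4 lower in both scalings, against 8.76% and 18.2% of all genes. Kcnd2, an A-type potassium channel, averaged 86.1 ± 5.30 ipsilaterally and 27.1 ± 2.53 contralaterally (SD, n = 5), a log2 difference of 1.25 ± 0.07 (SE; adjusted p = 4.67e-09, limma). Kcnip1, a protein that binds channels of this kind, averaged 789 ± 36.6 against 561 ± 21.9 (SD, n = 5), a difference of 0.48. Of the M-current subunits, Kcnq3 was dim, at 27.4 ± 2.84 against 8.12 ± 1.92, and Kcnq5 brighter, at 469 ± 5.69 against 365 ± 18.4 (SD, n = 5 each), but the call of Kcnq5 was lost with equal medians. Of 27 sodium and calcium channel subunits 2 were called higher and 3 lower, shares below those of all genes. Scn3a, the sodium channel Nav1.3 that returns in injured sensory neurons, read 21.5 to 35.3 ipsilaterally and 6.69 to 10.8 contralaterally, a difference of 0.92 at a level below the median probe set. Scn3b, a beta subunit, averaged 99.05 ± 6.47 against 145 ± 9.76 (SD, n = 5), a difference of -0.48. Scn11a, the nociceptor channel Nav1.9, was called higher as deposited (0.23) but had the opposite sign, not called, after quantile normalization (-0.10) and with equal medians (-0.08). Cacna2d1, the calcium channel subunit bound by gabapentin, differed by 0.01 as deposited and was called higher after quantile normalization (0.17) and lower with equal medians (-0.28), while its sides overlapped at 165 to 197 and 173 to 193. P2rx4, an ATP-gated channel, read 67.5 to 82.8 ipsilaterally and 44.0 to 71.8 contralaterally, a difference of 0.39, lost with equal medians.

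Genes that mark the classes of sensory neurons were taken next. Of 28 nociceptor channels and receptors 2 were called higher and 3 lower, against 8.76% and 18.2% of all genes. Gfra2, the neurturin receptor, averaged 570 ± 77.2 ipsilaterally and 384 ± 14.9 contralaterally (SD, n = 5), a log2 difference of 0.54, and its other probe set was not called. Htr3b, a serotonin-gated channel subunit, averaged 297 ± 21.2 against 395 ± 17.4 (SD, n = 5), a difference of -0.39. Of 17 sensory neuron identity genes 3 were called higher and 1 lower in both scalings. Uchl1, the neuronal protein PGP9.5, was the one called higher in all 3, at 2715 ± 291 against 1543 ± 120 (SD, n = 5). Its difference was 0.81 as deposited, 0.17 after quantile normalization and 0.49 with equal medians.

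Schwann cell and myelin genes, where called in both scalings, were lower. Of 20 measured, 10 fell and 0 rose in both scalings. The median member differed by -0.25 as deposited and -0.24 after quantile normalization, against -0.03 and -0.08 for all genes. Sox10, the transcription factor of glia, averaged 145 ± 25.2 ipsilaterally and 240 ± 16.1 contralaterally (SD, n = 5), a log2 difference of -0.68 ± 0.09 (SE; adjusted p = 2.53e-05, limma). Prx, the periaxin of myelinating Schwann cells, read 343 to 412 against 531 to 563, a difference of -0.51. Mal, a lipid-raft protein of myelin, read 213 to 301 against 378 to 405, and Mag, the myelin-associated glycoprotein, 16.2 to 26.2 against 33.5 to 37.0. None of these 4 genes overlapped between the sides. The summed signal of the list, in which the brightest members weigh most, ran opposite to its median, at 12407 to 13974 ipsilaterally and 10964 to 11683 contralaterally. Of the 20 genes, 18 lay above the median signal, and as deposited the bright eighth and ninth bins of all probe sets had medians of -0.19. The part of signal level in the falls was not tested. In whole ganglia, fewer cells of a type and less RNA per cell also cannot be told apart. Of 18 satellite glia genes 3 were called higher and 3 lower in both scalings, and 0 and 3 in all 3. Fabp7, a fatty acid binding protein of these cells, averaged 120 ± 24.99 against 178 ± 14.7 and the proteoglycan Bcan 57.9 ± 10.2 against 88.8 ± 6.50, while Glul, glutamine synthetase, averaged 961 ± 140 against 725 ± 27.9 (SD, n = 5 each) and lost its call with equal medians. The other probe set of Bcan was not called.

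Extracellular matrix genes that were called mostly fell. Of 52 measured fibroblast and matrix genes, 24 fell and 4 rose in both scalings. The median differed by -0.18 as deposited and -0.22 after quantile normalization, against -0.03 and -0.08 for all genes. Of the 52, 46 lay above the median signal, and as deposited the bright eighth and ninth bins of all probe sets had medians of -0.19. The part of signal level in these falls was not tested. Col6a3, a collagen VI chain, averaged 76.5 ± 6.65 ipsilaterally and 121 ± 7.79 contralaterally (SD, n = 5), a log2 difference of -0.57 ± 0.07 (SE; adjusted p = 6.94e-06, limma). Its other probe set was not called. Fmod, fibromodulin, averaged 23.8 ± 5.99 against 43.6 ± 5.53 (SD, n = 5). Against this direction stood Pdgfrb, the platelet-derived growth factor receptor of fibroblasts and pericytes, at 84.3 ± 8.47 against 29.3 ± 6.33, Col8a1, a short-chain collagen of vessels, at 57.5 ± 13.04 against 21.7 ± 2.96, and Eln, elastin, at 55.4 ± 8.71 against 20.8 ± 3.39 (SD, n = 5 each). The contralateral signals of these 3 genes lay below the median probe set, and the other probe set of Eln was not called. The matrix list summed to 16022 to 17155 ipsilaterally and 16398 to 16931 contralaterally, overlapping ranges.

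Of the immune cell genes called in both scalings, those of macrophages fell and those of neutrophils rose. Of 30 measured macrophage genes, 19 of them above the median signal of all probe sets, 17 fell and 0 rose in both scalings. The median differed by -0.24 as deposited and -0.26 after quantile normalization, against -0.03 and -0.08 for all genes. The summed signal of the list was 2987 to 3202 ipsilaterally and 3514 to 3633 contralaterally. Adgre1, the surface antigen F4/80, read 51.6 to 78.5 ipsilaterally and 101 to 115 contralaterally, a log2 difference of -0.66 ± 0.09 (SE; adjusted p = 2.27e-05, limma). Mpeg1, a pore-forming protein of macrophages, read 48.7 to 61.4 against 68.5 to 85.8, and Laptm5, a lysosomal protein of blood cells, 29.95 to 43.3 against 47.3 to 55.1. None of these 3 overlapped. Not every marker of the cells followed. Of the markers of resident macrophages, Mrc1 was called in neither scaling, at 240 to 367 against 269 to 351. Cd163 was called higher as deposited (0.25) and not called after quantile normalization (0.07). Of 11 neutrophil genes 5 rose and 0 fell in both scalings and in all 3, with a median difference of 0.39 as deposited and 0.18 after quantile normalization. S100a8, a calcium-binding protein abundant in neutrophils, read 145, 144, 137, 139 and 148 ipsilaterally and 75.5, 82.6, 68.8, 64.9 and 86.1 contralaterally, a difference of 0.80 ± 0.07 (SE; adjusted p = 3.33e-07, limma). The defensins Np4, at 45.0 ± 9.54 against 18.8 ± 3.38, and RatNP-3b, at 19.9 ± 3.37 against 7.35 ± 1.29 (SD, n = 5 each), were dim but free of overlap, and only 3 of the 11 genes lay above the median signal of all probe sets. Red blood cell genes gave no rise in both scalings. Hbb, beta globin, read 1919 to 2130 against 1669 to 2026. It was called higher as deposited (0.17) and lower after quantile normalization (-0.43). Alas2, the heme synthesis enzyme of red cell precursors, fell at 23.6 ± 5.53 against 47.3 ± 1.54 (SD, n = 5).

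Interferon stimulated genes that were called were mostly lower, with 9 falls and 2 rises among 26 and a median difference of -0.13 as deposited and -0.32 after quantile normalization. Mx1, an antiviral GTPase, had the tightest groups of the list, at 44.2 ± 3.01 ipsilaterally and 78.1 ± 1.41 contralaterally (SD, n = 5), a log2 difference of -0.65 ± 0.06 (SE; adjusted p = 9.7e-07, limma). Mx2 averaged 69.2 ± 13.4 against 136 ± 27.7, Usp18, which removes the ubiquitin-like ISG15 from proteins, 55.1 ± 6.93 against 83.5 ± 9.22, and Ifit2 33.6 ± 2.26 against 53.6 ± 9.03 (SD, n = 5 each). These 4 falls stood beside the rise of Ifnk, an interferon gene. Of 17 complement genes 4 fell and 0 rose, among them C1s, a protease of the classical pathway, at 145 ± 12.6 against 204 ± 19.5 (SD, n = 5). Cytokines and chemokines gave 2 rises and 5 falls among 31, lymphocyte genes 1 rise and 0 falls among 18, and genes of class II antigen presentation 1 rise and 0 falls among 17. The complement, cytokine, lymphocyte and class II counts were near or below the shares of all genes, 8.76% higher and 18.2% lower.

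**Figure D4:**
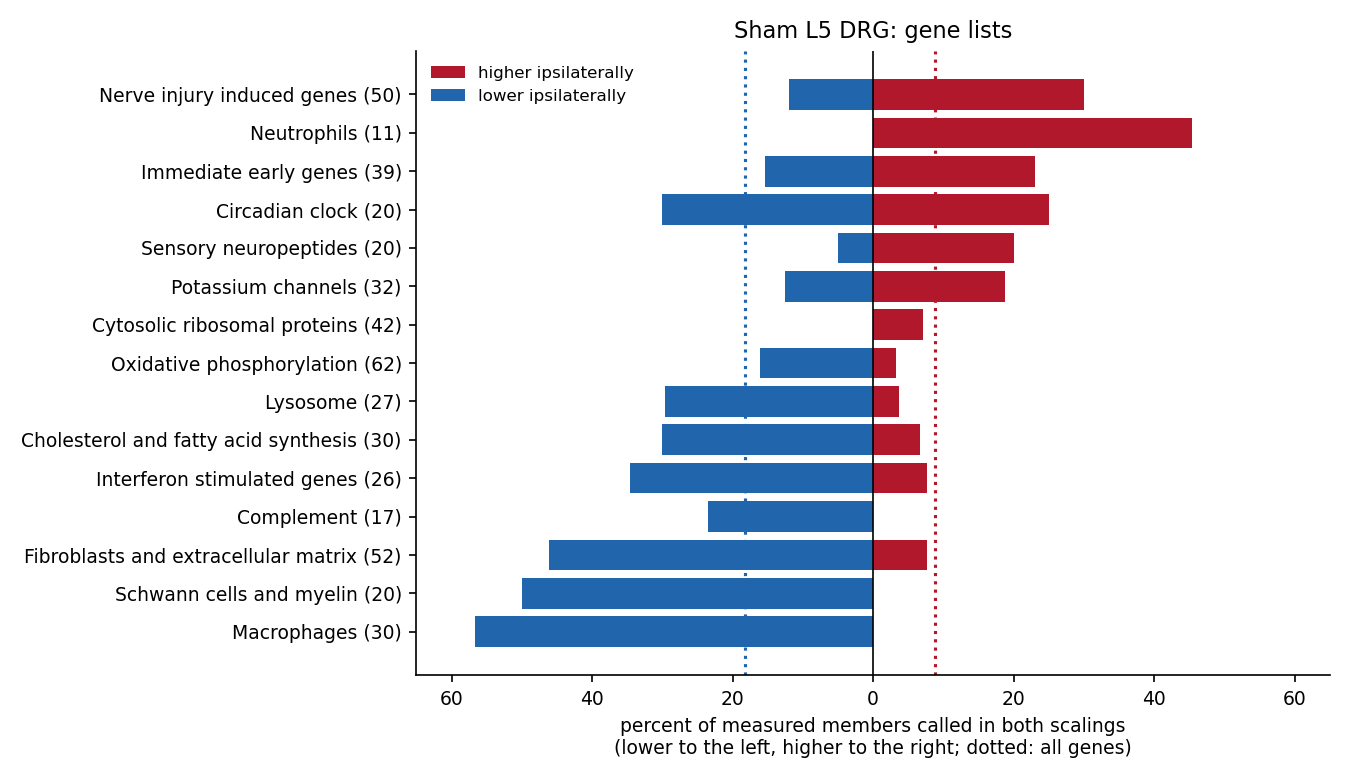
Percent of the measured members of 15 gene lists (number measured in parentheses) called in both scalings in the sham L5 DRG, higher ipsilaterally to the right and lower to the left. Dotted lines mark all genes, 8.76% higher and 18.2% lower. The bars of macrophage, Schwann cell and matrix genes on the left and of neutrophil and nerve injury genes on the right reach farthest beyond them. Bars of interferon, cholesterol, lysosome and complement genes also pass the left line. Those of immediate early, neuropeptide and potassium channel genes pass the right line, and those of clock genes pass both.

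Among clock, activity and growth genes, calls went in both directions. Of 20 circadian clock genes 5 rose and 6 fell, against 8.76% and 18.2% of all genes. Hlf, a transcription factor of the clock output, averaged 147 ± 10.5 ipsilaterally and 59.9 ± 3.37 contralaterally (SD, n = 5), a log2 difference of 1.10 ± 0.06 (SE; adjusted p = 4.3e-09, limma). Rorb averaged 50.9 ± 8.34 against 16.2 ± 2.58, Per3 74.0 ± 8.00 against 32.3 ± 6.25 and Npas2 57.9 ± 6.04 against 23.8 ± 3.80 (SD, n = 5 each). These 4 are among the 5 clock genes that rose, while 6 fell. The contralateral signals of Rorb, Per3 and Npas2 lay below the median probe set. Of 39 immediate early genes, which respond quickly to cell stimulation, 9 rose and 6 fell in both scalings, and 3 and 6 in all 3. Nr4a2 averaged 68.1 ± 7.27 against 37.2 ± 5.14 and Klf4 81.4 ± 13.2 against 49.3 ± 4.18, while Per1, also a clock gene, averaged 46.5 ± 7.60 against 69.5 ± 8.51 (SD, n = 5 each) with sides that overlapped. Of 31 cell proliferation genes 3 rose and 6 fell, shares near those of all genes. The antigen Mki67 averaged 127 ± 11.6 against 49.2 ± 4.93 and thymidine kinase Tk1 89.5 ± 14.7 against 37.0 ± 5.21, whereas Rrm1, the large subunit of ribonucleotide reductase, averaged 42.6 ± 6.27 against 65.7 ± 6.03 (SD, n = 5 each). Tk1 and Rrm1 both supply precursors for DNA, and they moved in opposite directions.

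Housekeeping groups showed both small falls and the hold of the scaling. Of 27 lysosome genes 8 fell and 1 rose, against 18.2% and 8.76% of all genes. The median difference was -0.15 as deposited and -0.12 after quantile normalization, against -0.03 and -0.08 for all genes. Of the 27, 25 lay above the median signal, and as deposited the bright eighth and ninth bins of all probe sets had medians of -0.19. The summed signal of the list ran opposite to its median, at 13506.2 to 14558.5 ipsilaterally and 12849.3 to 13307.4 contralaterally. Among the falls were Ctss, cathepsin S, at 253 ± 14.1 ipsilaterally and 343 ± 11.7 contralaterally, Grn, progranulin, at 234 ± 28.9 against 323 ± 17.5, and Tpp1 at 128 ± 12.6 against 178 ± 7.61 (SD, n = 5 each). Of 30 cholesterol and fatty acid synthesis genes, all 30 above the median signal, 9 fell and 2 rose. Their median differed by -0.16 and -0.14 in the same scalings. The sterol reductase Dhcr7 averaged 193 ± 15.6 against 276 ± 5.28 and the regulator Srebf1 48.6 ± 4.42 against 64.3 ± 4.91 (SD, n = 5 each). Of 62 oxidative phosphorylation genes 10 fell and 2 rose, a share near that of all genes. Of 42 cytosolic ribosomal protein genes 31 were called higher and 0 lower as deposited, 4 higher and 9 lower after quantile normalization, and 3 higher in both. Those 3 were Rpl21, at 1792 ± 256 against 1151 ± 51.2, Rpl7a, at 1451 ± 77.9 against 994 ± 55.2, and Rps13, at 56.8 ± 13.1 against 32.6 ± 4.38 (SD, n = 5 each). Of 35 neuronal cytoskeleton genes 21 were likewise higher as deposited and 3 after quantile normalization, with 10 then lower. Neither group had a direction that held across the scalings.

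Adipocyte genes differed in direction among themselves. Adipoq, the fat cell hormone adiponectin, averaged 55.7 ± 7.06 ipsilaterally and 18.6 ± 5.78 contralaterally and Pck1 35.9 ± 6.10 against 10.95 ± 2.22, while Lpl, lipoprotein lipase, averaged 73.8 ± 6.47 against 146 ± 2.59 and Cfd, adipsin, 2.399 ± 0.497 against 10.5 ± 2.53 (SD, n = 5 each). Among 17 such genes 2 rose and 2 fell in both scalings, and the fat markers Fabp4, Lep and Plin1 were at or below 12.99 on every array.

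The sham L5 side difference was next set against that of the L4 DRG of the same sham rats, which lies 1 segment higher on the operated side. The difference between the 2 side effects was fitted over the 20 sham arrays. Of all genes, 560 (3.94%) had a higher and 784 (5.51%) a lower side effect at L5 than at L4 in both scalings. Vip read 90.5 ± 15.6 against 6.01 ± 1.41 at L5 and 23.5 ± 3.31 against 2.61 ± 1.78 at L4 (SD, n = 5, ipsilateral against contralateral), and its side effect was larger at L5 by 1.18 ± 0.15 in log2 (SE; adjusted p = 7.15e-06, limma). Sox11 had a side effect larger at L5 by 0.83 (adjusted p = 0.00106), with L4 signals of 113 ± 27.5 against 95.4 ± 20.1, and Gal by 0.74 (adjusted p = 0.000346, limma), with L4 signals of 108 ± 8.56 against 110 ± 12.1 (SD, n = 5 each). Npy differed in the same direction at both segments, with side effects of 1.92 at L5 and 1.71 at L4, and the difference between them was not called (0.21 ± 0.11, SE; adjusted p = 0.222, limma). The side effects of Atf3 were 0.43 at L5 and 0.39 at L4, with a difference of 0.03 ± 0.14 (SE; adjusted p = 0.91, limma).

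The genes with the largest positive difference from L4 were Snrk, Zfp329, Myocd, Spic, S100a8 and Vip. Myocd, a coactivator of smooth muscle genes, averaged 124 ± 17.2 against 33.9 ± 3.10 at L5 and 106 ± 6.82 against 93.5 ± 5.89 at L4 (SD, n = 5), a difference of 1.32 ± 0.11 (SE; adjusted p = 6.73e-08, limma). The contralateral L5 level was the low one among these 4 groups. S100a8 rose at L5 and fell at L4, where it averaged 141 ± 17.5 against 189 ± 5.36 (SD, n = 5), a difference of 1.19 ± 0.10 (SE; adjusted p = 6.73e-08, limma). Its L5 signals were 137 to 148 ipsilaterally and 64.9 to 86.1 contralaterally. For S100a8 too, the contralateral L5 level was the low one among the 4 groups. Zfp329 averaged 63.95 ± 10.6 against 15.9 ± 3.10 at L5 and 25.5 ± 7.10 against 27.03 ± 4.47 at L4 (SD, n = 5). Snrk, a kinase, ranked first at 1.81 but rested on scattered values, with 165, 156, 21.2, 49.8 and 111 ipsilaterally and 18.2, 16.001, 15.4, 32.8 and 12.4 contralaterally at L5. Its sides overlapped, and 2 of the ipsilateral arrays stood far below the rest. The largest negative differences were those of Mx2, LOC102554214, Vgf, Uqcc1, Setd1b and Lnx1. Vgf, a neuropeptide precursor, averaged 110 ± 17.6 against 200 ± 32.5 at L5 and 142 ± 30.04 against 118 ± 37.9 at L4 (SD, n = 5), a difference of -1.04 ± 0.23 (SE; adjusted p = 0.00294, limma). Uqcc1, an assembly factor of respiratory complex III, fell at L5 (229 ± 22.6 against 328 ± 9.51) and rose at L4 (387 ± 19.999 against 277 ± 21.5; SD, n = 5), a difference of -0.96 ± 0.09 (SE; adjusted p = 1.09e-07, limma). LOC102554214 was called higher at L4 and differed by 0.01 at L5. Over all genes 3.94% had a higher and 5.51% a lower side effect at L5. Of 50 nerve injury genes 9 were higher and 5 lower, of 39 immediate early genes 6 and 0, and of 11 neutrophil genes 3 and 0. Of 52 matrix genes 5 were higher and 6 lower, of 20 Schwann cell genes 0 and 3, and of 30 macrophage genes 1 and 0. The falls of macrophage genes were therefore not shown to differ between the segments. The control probe sets differed between the sides at L4 too, with ratios of 2.43 for 5S rRNA and 1.98 for ratb1. The GAPDH 3′ to 5′ ratio, whose difference did not pass the test at L5, was 1.72 ± 0.08 against 1.29 ± 0.12 in log2 at L4 (SD, n = 5; p = 0.00794, exact permutation test).

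Against ligation of the same nerve, the comparison of L5 side effects gave 2079 genes (14.6%) higher and 3799 (26.7%) lower in sham rats, in both scalings. The SNL L5 arrays carry another series of running numbers, so each side effect was taken within its own set of arrays before the difference was tested. RNA quality measures differed between the sides of SNL L5, with a GAPDH 3′ to 5′ ratio of 1.61 ± 0.10 against 0.97 ± 0.08 and an actin ratio of 4.73 ± 0.26 against 3.59 ± 0.20 in log2 (SD, n = 5; each p = 0.00794, exact permutation test). The part of these measures in the differences at L4 and SNL L5 was not tested. Vip, Npy, Gal and Atf3 rose after sham surgery by much less than after ligation. Vip read 90.5 ± 15.6 against 6.01 ± 1.41 in sham rats and 1222 ± 49.7 against 5.00 ± 1.39 in SNL rats (SD, n = 5, ipsilateral against contralateral), log2 side effects of 2.26 and 5.88 with a difference of -3.62 ± 0.12 (SE; adjusted p = 1.99e-18, limma). Npy had side effects of 1.92 in sham and 5.72 in SNL rats, Gal of 0.72 and 4.08, and Atf3 of 0.43 and 3.69, differences of -3.79, -3.37 and -3.26. Sox11 had closer values, with 1.03 in sham and 1.51 in SNL rats and a difference of -0.49 ± 0.15 (SE; adjusted p = 0.00949, limma). Jun, not called in sham rats, had a side effect of 1.39 in SNL rats. Over the list, 39 of 50 nerve injury genes had a lower and 2 a higher side effect in sham rats.

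Many macrophage, matrix and Schwann cell genes had lower side effects in sham than in SNL rats. Of all genes, 3754 (26.4%) rose and 2527 (17.8%) fell in SNL L5 in both scalings. Among macrophage genes, 17 fell and 0 rose in sham L5 and 0 fell and 24 rose in SNL L5, and 24 of 30 had a lower side effect in sham rats by the test of the difference. Among matrix genes, 24 fell and 4 rose in sham L5 and 2 fell and 50 rose in SNL L5, with 46 of 52 lower in the difference. Col6a3 had side effects of -0.57 in sham and 2.56 in SNL rats, C1s of -0.45 and 2.77, and Adgre1 of -0.66 and 1.95. Not all members did so, as Col8a1 (0.95 in sham and 0.82 in SNL rats) and Eln (0.95 and 0.53) were higher ipsilaterally under both procedures. Of 20 Schwann cell genes 12 were lower and 2 higher in the difference, and satellite glia genes were called in both directions under both procedures, 3 higher and 3 lower in sham L5 and 7 and 6 in SNL L5. Neutrophil genes ran the other way, with 5 rises and 0 falls in sham L5, 0 rises and 7 falls in SNL L5, and 7 of 11 higher in the difference. These counts compare the sides within each procedure. Defa5, a dim defensin, averaged 13.3 ± 6.07 against 3.17 ± 2.25 in sham L5 and 38.5 ± 7.51 against 71.3 ± 21.4 in SNL L5 (SD, n = 5). Its contralateral SNL level was thus the highest. The levels of the other members were not compared between the procedures.

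Several genes that were far lower on the ligated side of SNL rats differed little between the sides of sham rats. Pvalb, parvalbumin of proprioceptive neurons, averaged 1152 ± 74.7 against 1045 ± 71.5 in sham L5 and 18.6 ± 4.07 against 1278 ± 147 in SNL L5 (SD, n = 5, ipsilateral against contralateral), a difference of 5.36 ± 0.11 (SE; adjusted p = 8.37e-22, limma). Ano3, a membrane protein of the anoctamin family, averaged 572 ± 17.6 against 593 ± 23.6 in sham L5 and 41.1 ± 8.17 against 592 ± 24.3 in SNL L5, and Kcnip4, a potassium channel partner, 787 ± 40.7 against 807 ± 48.3 and 62.6 ± 9.86 against 804 ± 34.1 (SD, n = 5 each). Nptx1, neuronal pentraxin, and the muscle genes Myl1 and Acta1 had the other large positive differences, at 3.71, 4.54 and 3.54. Acta1 averaged 86.4 ± 4.87 against 83.3 ± 7.05 in sham L5 and 61.4 ± 5.15 against 860 ± 122 in SNL L5 (SD, n = 5). The contralateral SNL level was thus the high one among these 4 groups. Of 28 muscle genes 25 fell and 0 rose in SNL L5 in both scalings, with a median of -2.65 as deposited. The part of muscle RNA in these differences was not tested. Scn11a had side effects of 0.23 in sham and -3.05 in SNL rats. Of 32 potassium channel genes 24 had a higher and 2 a lower side effect in sham rats. For P2rx4 the side effects of 0.39 in sham and 0.31 in SNL rats gave a difference that was not called (0.08 ± 0.15, SE; adjusted p = 0.718, limma).

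**Figure D5:**
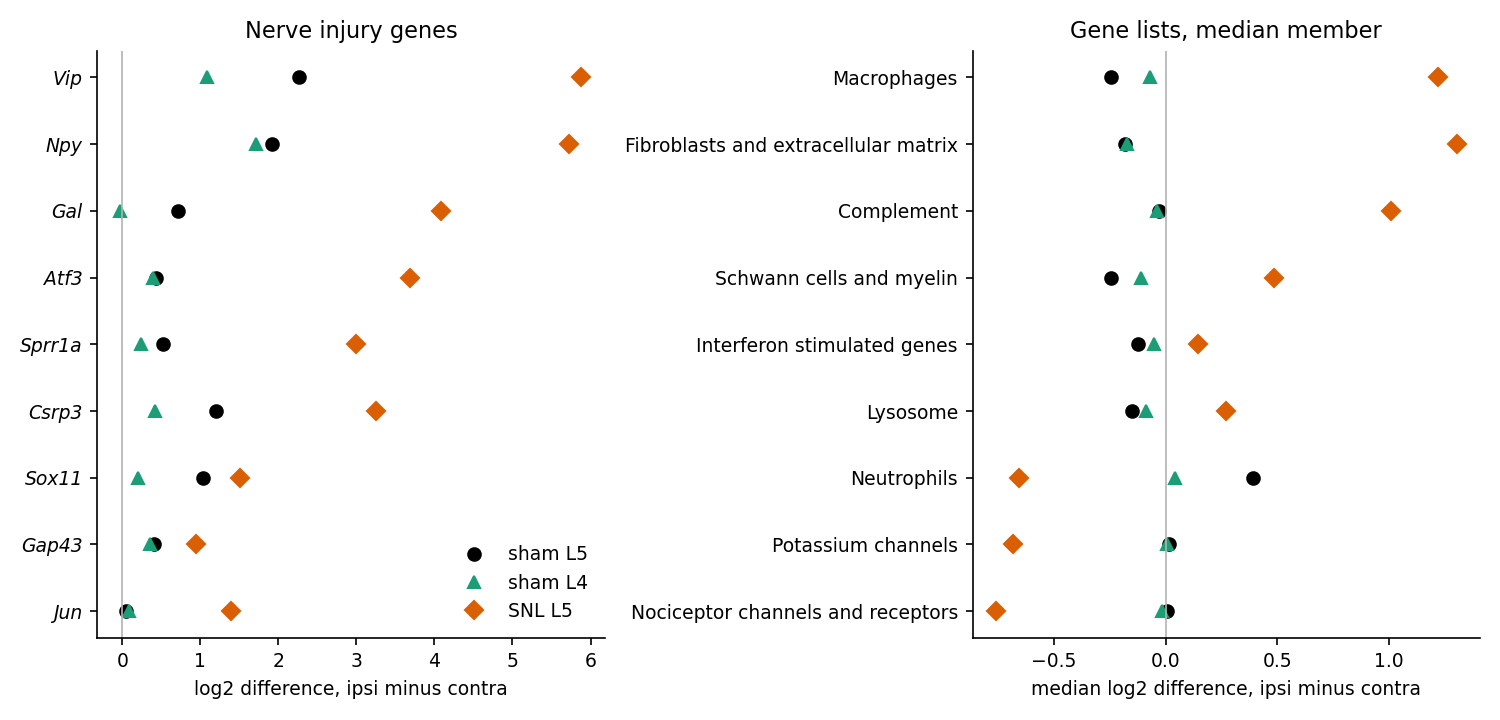
Left, the log2 side effect (ipsilateral minus contralateral, as deposited) of 9 nerve injury genes in sham L5 (circles), sham L4 (triangles) and SNL L5 (diamonds). Right, the median side effect over the members of 9 gene lists in the same 3 comparisons, where the sham L5 medians of macrophage, matrix and Schwann cell genes lie below 0 and those of SNL L5 above it.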

How the data were processed

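The deposited table holds 31099 Affymetrix probe sets for 40 arrays as linear signal intensity, which the authors computed with MAS5 (version not given in the sources used here). No further normalization was stated. The 57 control probe sets were left out, leaving 31042. Through the platform annotation, 20826 probe sets had 1 gene symbol, 436 several and 9780 none, and 20758 were matched to current RefSeq symbols. Each of 14217 genes was taken by its probe set with the highest mean signal over the 10 sham L5 arrays. No probe set was dropped for low signal, no array was left out, and no pair of the 10 arrays held identical values (Pearson r of 0.963 to 0.996). The precision is limited by 5 arrays per side.

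Tests used limma 3.58.1 in R 4.3.3 (lmFit and eBayes with an intensity trend) on log2(signal + 16), with Benjamini-Hochberg adjustment over all probe sets, and the code was tested on simulated data. Side effects were compared as an interaction in fits of 20 arrays. Single values such as array medians had a 2-sided exact permutation test (scipy 1.17.1). The gene lists, gene choices and the comparison itself were set with earlier results of these data known, so list counts are descriptions with no test of their own. Named were the 12 largest rises and falls by the smaller of the 2 log2 differences among bright genes free of overlap, up to 4 called members of a list, a fixed set of injury and channel genes, and the 6 largest differences each way.

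Same-numbered DRGs come from the same rat, but their deviations from the group means correlated at only -0.14 to 0.01, and 0 of 5 rats had the highest correlation with their own other side. The study's methods name a paired test for its microRNA assays but only a t-test, with no pairing stated, for these arrays, so the rat entered as a block only in an alternative fit.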

Additional observations from a re-analysis of the deposited data

Results flagged for a closer look

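The side effect at L5 differed from that at sham L4 by the interaction test in 560 genes (higher at L5) and 784 genes (lower at L5). The named genes behind these counts had log2 differences, sham L5 minus sham L4, of 1.81 for Snrk, 1.38 for Zfp329, 1.32 for Myocd, 1.26 for Spic, 1.19 for S100a8, 1.18 for Vip, 0.83 for Sox11 and 0.74 for Gal, and of -1.07 for Mx2, -1.04 for LOC102554214, -1.04 for Vgf, -0.96 for Uqcc1, -0.92 for Setd1b and -0.92 for Lnx1. Setd1b, a histone methyltransferase, overlapped between the sides at L5, with 58.4 to 137 ipsilaterally and 127 to 166 contralaterally, and so did Lnx1, an E3 ubiquitin ligase, with 23.02 to 49.9 against 25.2 to 58.7.

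Against SNL L5, 2079 genes had a higher and 3799 a lower side effect in sham L5. The log2 differences, sham L5 minus SNL L5, were 5.36 for Pvalb, 4.54 for Myl1, 3.71 for Nptx1, 3.54 for Acta1, 3.37 for Ano3 and 3.36 for Kcnip4, and -3.79 for Npy, -3.62 for Vip, -3.37 for Gal, -3.26 for Atf3, -3.22 for C1s, -3.13 for Col6a3, -2.47 for Sprr1a, -1.35 for Jun, -0.53 for Gap43 and -0.49 for Sox11.

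Control probe sets that no comparison of genes used were higher on the ipsilateral side of sham L5, by ratios of 4.02 for 5S rRNA, 3.30 for ratb1 and 3.34 for ratb2, a second repeat-element control at 19.2 to 27.1 against 5.602 to 8.795. The 5S ratio was 2.43 in sham L4, 1.51 in SNL L5 and 1.27 in SNL L4. The part of these controls in the gene differences was not tested.

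A sample far from its group was found in 21 of 240 groups of 5 arrays, and chance gives about 1 in 20. On the ipsilateral side these were rat 22, low for Ikzf2 (125) and Spic (93.0), rat 23, low for Col8a1 (35.2), Per3 (60.1), Tk1 (64.1) and Myocd (93.9), and rat 1, low for Ccne2 (80.6). On the contralateral side rat 22 was high for Laptm5 (55.1) and Ccne2 (72.1) and low for C1s (171), Vgf (143), LOC102554214 (136) and Setd1b (127), rat 23 was low for Col8a1 (16.6), rat 17 low for Per1 (54.6), and rat 14 high for Gfra2 (409) and Rrm1 (76.1). Among array measures, the ipsilateral array of rat 22 was low in median signal (34.9) and in the 25th percentile (12.1), the contralateral array of rat 22 was low in the bacterial controls (7.60 in log2), and the ipsilateral array of rat 23 was high in ratb1 (588).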

How the results depend on the processing

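The number of probe sets called higher was 9640 as deposited, 5267 after quantile normalization, 6077 with equal medians and 3190 without dim probe sets. The number called lower was 5978 as deposited and 12901 with equal medians, and 8784 were called in all without dim probe sets, where fewer were tested. A 1.5-fold minimum left 2905 higher and 204 lower (3109). The methods' t-test at their threshold gave 4740 higher and 2152 lower (6892) on log2 values and 4405 and 2254 (6659) on linear signals. With the rat as replicate block, 9172 were higher and 5555 lower (14727), and 4870 were higher after quantile normalization with the block, while 3316 of the 3840 genes called in both scalings were also called in both with the block. Leaving out each array in turn gave 14036 to 15674 calls as deposited (8640 to 9623 higher, 5261 to 6061 lower), 10363 to 12001 after quantile normalization (4686 to 5255 higher, 5677 to 6749 lower), 3183 to 3904 for the difference from sham L4 (1907 to 2294 higher, 1265 to 1617 lower) and 12749 to 13241 for that from SNL L5 (6536 to 6871 higher, 6197 to 6401 lower). Of the 3840 genes, 2796 were called in both scalings without each array in turn. The difference from sham L4 had 2463 lower probe sets with equal medians.

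Of 3969 values for 109 named genes, 3889 kept direction and call, 39 lost the call, 17 gained it and 24 reversed. Reversed were Jun (-0.10 after quantile normalization, with or without the block, and -0.27 with equal medians), Scn11a (-0.10 and -0.0808), Pvalb (-0.14 and -0.17), Acta1 (-0.22 with equal medians), Cacna2d1 (-0.28 with equal medians, -0.0167 to 0.0411 without each array in turn), LOC102554214 (-0.28 with equal medians, -0.0598 to 0.0916 without each array in turn), and 2 differences, Atf3, sham L5 minus sham L4 (-0.0368 with equal medians, -0.00539 to 0.0637 without each array in turn) and Gap43, sham L5 minus sham L4 (-0.00661 after quantile normalization, -0.0288 with equal medians). Laptm5, Ndufb8 and Per1 lost their calls in the fit of all 40 arrays. The cause was not tested.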
